A study of Drosophila melanogaster with 63 samples.

Results

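The genes described here are the cytochrome P450 genes of Drosophila melanogaster other than Cyp4g1, followed through starvation, a sugar diet and larval growth. They were chosen by name, as every measured gene whose updated symbol begins with Cyp and a digit. Membership followed from the symbol alone, but the set, without Cyp4g1, was chosen with earlier results of these data known. The pattern took 67 of the 9212 genes measured. Of these, 2 are not P450 genes: Cyp1 and Cyp40 encode cyclophilins, enzymes that help proteins fold and share only the letters of the name. They were set apart, which left 65 P450 genes of 17 CYP families. RefSeq lists 82 protein-coding genes with such symbols, and 64 of them were measured. The remaining measured gene, Cyp6a16Psi, carries the array annotation's symbol, which RefSeq lists as an older name of Cyp6a16. Of the 65 genes 59 were read by 1 clone on the array and 6 by 2 clones, and all 65 had a value in all 12 groups.

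Cytochrome P450 enzymes hold a haem group with which they insert an oxygen atom into small, mostly greasy molecules. They take the electrons for this from partner proteins, a reductase at the endoplasmic reticulum or ferredoxin and its reductase in mitochondria. The CYP number groups them by similarity of sequence. In insects, members of the families CYP6, CYP9, CYP12 and CYP28 are known for breaking down plant toxins and insecticides in gut, fat body and Malpighian tubules. A few P450 enzymes instead make or remove hormones. The Halloween genes build ecdysone, the steroid that times moulting and metamorphosis, and Cyp18a1 inactivates it.

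The animals were wild-type OregonR flies and larvae kept at 25 C, and each of 63 spotted arrays set 1 treated RNA against 1 control RNA in 2 dye channels. Adults were starved on filter paper with phosphate-buffered saline alone, females for 24 h (6 arrays) and 48 h (5 arrays) and males for 24 h (6 arrays). Other adults had 20% sucrose in place of yeast, females for 24 h (5 arrays) and 48 h (6 arrays) and males for 24 h (6 arrays) and 48 h (4 arrays). The control of these 7 groups was flies on yeast paste. Larvae of 52 h (6 arrays), 64 h (5 arrays), 76 h (6 arrays), 88 h (4 arrays) and 100 h (4 arrays) after egg laying, grown on apple juice agar with yeast, had younger larvae of 40 h as their control. The labels name total RNA and no dissected tissue. The number of animals behind an extract is not stated.

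The authors merged all arrays of a group into 1 log2 ratio per clone, and every array of a group holds that same value. There is therefore 1 measurement per gene and group. No replicate spread can be had and no test was made, so higher and lower are descriptive words. Each gene's value is its clones' median. Differences were counted where they were at least 2-fold, which is 1 on the log2 scale. The technical yardstick is the gap between both clones of a gene, over 645 genes with exactly 2 clones. Its 95th percentile lay between 0.36 in starved males and 0.78 in females given sugar for 48 h. For larvae of 52, 64, 76, 88 and 100 h it came to 0.62, 0.65, 0.85, 0.91 and 1.09, so at 100 h a 2-fold value of a gene with 1 clone lies within the spread between clones. Values are likely treated over control. Each array's control is named by the labels, but the direction of the merged value is not. The basis is Lsp2, a storage protein of the late larval fat body, at 8.52 at 88 h and 8.26 at 100 h, and the eggshell genes, whose list median was -2.42 in starved females at 24 h. In RNA of many cell types, fewer cells of a type and less RNA per cell cannot be told apart.

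In adults the median of the P450 genes stayed near the control, though most members lay below 0 in the male groups. In older larvae many members lay above the control. Of the 65 genes 21 were at least 2-fold from the control in 1 or more groups and 44 in none. The adult groups held 6 such members, against 5.2% of all genes, and the larval groups held 18, against 13.9% of all genes. In both adults and larvae 3 members were 2-fold from the control, Cyp4e3, Cyp6g1 and Cyp12a4. The share of all genes was not counted for this overlap or for the 21 members. The median of the members was 0.02 and 0.06 in starved females at 24 and 48 h, and -0.10 in starved males. On sugar it was -0.01 and -0.06 in females and -0.08 and -0.10 in males at 24 and 48 h. For larvae, from the youngest age on, it came to 0.06, 0.20, 0.28, 0.28 and 0.26, with 44, 51, 51, 47 and 43 of the 65 genes above 0. The medians of all genes lay between -0.03 and 0.02. Above 0 in adults were 38 and 41 of the 65 members in starved females and 15 in starved males. On sugar the numbers were 28 and 27 in females and 21 and 21 in males at 24 and 48 h.

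**Figure D1:**
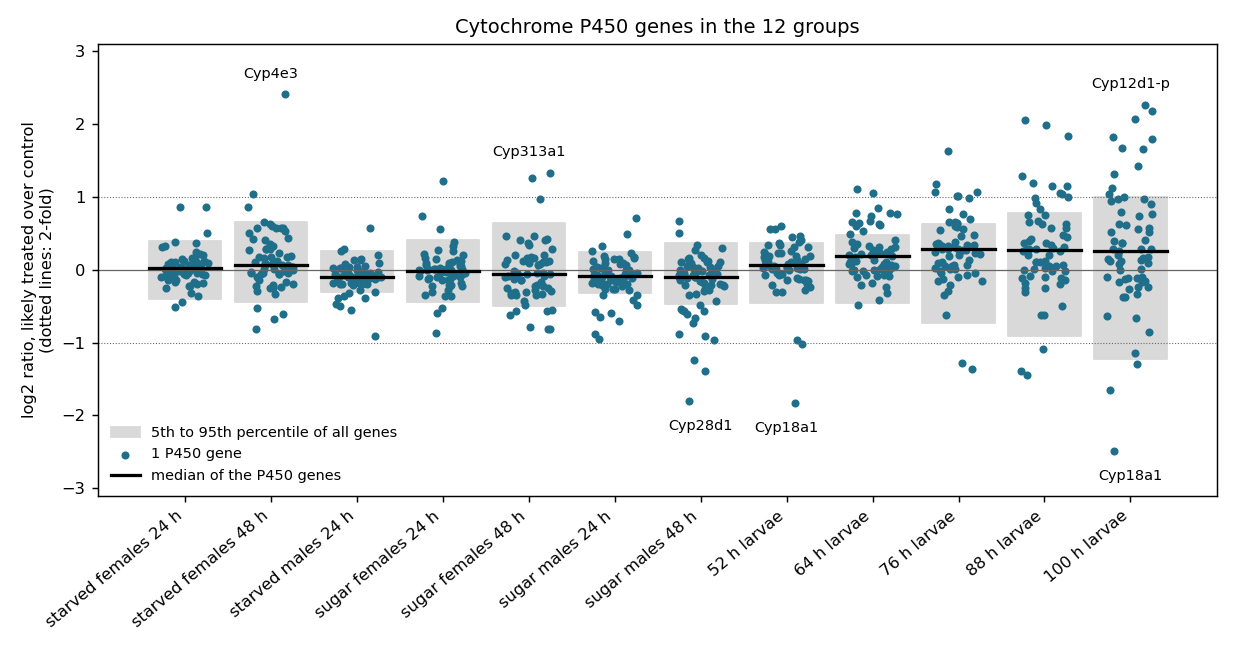
Each point is the log2 ratio of 1 of the 65 P450 genes, likely treated over control, in the 12 groups; the grey band spans the 5th to 95th percentile of all genes measured and the black bar is the median of the P450 genes. Points spread widest in larvae of 88 and 100 h, where Cyp12d1-p reached 2.27 and Cyp18a1 -2.49, while in adults Cyp4e3 stood apart at 2.42 in females starved for 48 h.

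Cyp18a1, the hydroxylase that inactivates ecdysteroids, was the lowest member in larvae of 52, 64, 76 and 100 h. Its ratio was -1.84 at 52 h, -0.48 at 64 h, -1.36 at 76 h, -1.09 at 88 h and -2.49 at 100 h. It was thus lower than in larvae of 40 h at every age, 5.61-fold at 100 h, and nearest to them at 64 h. Of the larval ages, 64 h also had the smallest share of all genes at least 2-fold lower, 0.185%. In adults it lay between 0.05 and 0.28, all 7 values slightly above 0.

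The Halloween genes carry names of their own, so the symbol pattern does not take them, and 4 were measured. Shade (shd) turns ecdysone into its active form 20-hydroxyecdysone in tissues outside the gland. It lay at 0.40, -0.05, 0.38, 0.67 and 1.10 from 52 to 100 h, and was highest at the last age. In adults shd kept between -0.07 and 0.06. Shadow (sad), which with disembodied (dib) carries out late steps of ecdysone synthesis, lay at 0.23, -0.13, 0.06, 0.27 and 0.58 in larvae. Its 100 h value was below 2-fold and inside the clone spread of that age. Disembodied lay between -0.19 and 0.12 over all 12 groups. Spook (spo), which acts early in the pathway in embryo and ovary, lay between -0.15 and 0.18 in larvae. In adults spo was at -0.08 and -0.41 in females without food, -0.32 and -0.36 in females with sugar, -0.06 in starved males and -0.03 and -0.20 in sugar-fed males. All 7 adult values of spo were below 0 and none was 2-fold. Cyp6t3, a CYP6 gene also tied to ecdysone production in the prothoracic gland, lay between -0.18 and 0.16 in larvae and between -0.06 and 0.41 in adults. The genes phm and spok were not analysed here.

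The genes around these enzymes were described from lists chosen with earlier results of these data known. Of 12 listed gene names of ecdysone synthesis outside the P450 genes 5 were measured, and at 100 h their median was 0.96. At that age 2 of them were at least 2-fold higher (background 4.97%). These were shroud (sro), a dehydrogenase of the pathway, at 1.39 and Npc1a, a sterol transporter named after its value was seen, at 1.26. The lowest was Fdx1, a ferredoxin, at -0.42. Of 27 genes that respond to ecdysone 15 were measured, with a median of 0.40 at 100 h. Here 4 were at least 2-fold higher (background 4.97%) and none 2-fold lower (background 6.77%). The highest was Fbp2, a fat body protein, at 7.51. The other 3, named after their values were seen, were the glue protein gene Sgs5 at 3.00, ImpL2, an insulin-binding protein, at 1.95, and broad (br), a transcription factor of metamorphosis, at 1.56. At 88 h Fbp2 was the only one of the 15 that was 2-fold higher, at 7.85 (background 3.22%). Eip78C was 2-fold lower at -1.13 (background 4.23%).

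Among the members, the number at least 2-fold higher in larvae was 0 at 52 h (background 0.478% of all genes), 2 at 64 h (background 0.999%), 6 at 76 h (background 2.07%), 9 at 88 h (background 3.22%) and 11 at 100 h (background 4.97%). As shares of the 65 members the last 3 counts are 9.23%, 13.8% and 16.9%, above the background at each of these ages. Members at least 2-fold lower numbered 2 (background 1.8%), 0 (background 0.185%), 2 (background 2.81%), 3 (background 4.23%) and 4 (background 6.77%) at the same ages, shares near the background.

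The CYP6 family, which holds the best known insecticide resistance genes, had 19 measured members, 4 of them at least 2-fold higher at 100 h. Cyp6a14 lay at 0.56, 0.66, 1.01, 1.29 and 2.07 from 52 to 100 h, the highest of the family at 100 h. Cyp6g1, whose excess confers resistance to DDT and to neonicotinoids, lay at 0.02, 0.38, 0.63, 0.76 and 1.79. It was close to the 40 h control at 52 h and 3.46-fold above it at 100 h. Cyp6d4 lay at 0.32, 0.49, 0.57, 1.20 and 1.43. Cyp6d2 was between 0.00 and 0.39 up to 88 h and at 1.12 at 100 h. Cyp6w1 passed 2-fold at a single age, with 1.04 at 88 h between 0.60 at 76 h and 0.36 at 100 h. Cyp6t1 stopped just short of 2-fold, with 0.98 at 88 h and 0.998 at 100 h.

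Mitochondrial P450 enzymes of the CYP12 family had a family median of 0.18, 0.30, 0.51, 0.74 and 0.92 from 52 to 100 h over 6 members. Cyp12d1-p, induced by many foreign compounds, was the highest of all members at 100 h, with 0.25, 0.33, 0.66, 1.15 and 2.27 from 52 to 100 h. Its clones read 2.61 and 1.92 at 100 h, so both were well above 2-fold. The genome holds a near-identical copy, Cyp12d1-d, and whether the clones read one or both is not known. Cyp12a4, tied to resistance to the growth inhibitor lufenuron, lay at 0.55, 0.78, 0.84, 0.91 and 1.66. Cyp12e1 lay at 0.34, 0.62, 0.98, 1.15 and 1.05 and so came to its level by 76 h. The other 3 members of the family lay at 0.79 (Cyp12a5), 0.74 (Cyp12b2) and 0.41 (Cyp12c1) at 100 h.

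The CYP9 family had the same course, with a median of 0.19, 0.31, 0.46, 0.84 and 0.95 over 3 members. Cyp9f2 led it at 0.35, 0.32, 0.54, 1.00 and 1.67. Cyp9c1 reached 0.95 and Cyp9h1 0.57 at 100 h, both below 2-fold.

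The CYP28 family split. Cyp28a5 lay at 0.38, 0.67, 1.07, 1.99 and 2.18 from 52 to 100 h. Cyp28d1, a gene of nicotine resistance, lay at 0.24, 0.54, 0.28, 0.67 and 0.97. Cyp28d2, next to it on the chromosome, was at 0.60, 0.64 and 0.76 up to 76 h, at -0.15 at 88 h and at -1.30 at 100 h. At 100 h Cyp28a5 was thus the second highest of all members and Cyp28d2 the third lowest.

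In the CYP4 family, with 15 members, Cyp4d8 lay at 0.46, 1.11, 1.63, 2.06 and 1.82 from 52 to 100 h, and was the highest member at 64, 76 and 88 h. Cyp4e3, linked to permethrin tolerance, lay at 0.19, 0.36, 1.18, 1.83 and 1.31. Both were highest at 88 h. Cyp4d1 lay at 0.46, 1.06, 1.01, 1.06 and 0.97, a plateau near 2-fold. Its clones read 0.61 and 1.51 at 64 h and 0.65 and 1.37 at 76 h, so only 1 of the 2 passed 2-fold at each of these ages. Cyp311a1, the sole measured member of its family, passed 2-fold once, at 76 h, with 0.31, 0.74, 1.07, 0.58 and 0.62 over the ages.

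Members below the control in larvae were fewer. Cyp301a1, a gene of cuticle formation, lay at -0.96, -0.32, -1.28, -1.45 and -1.66 from 52 to 100 h. Cyp4c3 lay at -1.01, 0.60, -0.63, -1.38 and -1.14. Both, like Cyp18a1, were low at 52 h, higher at 64 h and low again from 76 h on. This break at 64 h was not particular to them. Of all genes 1.8%, 0.185% and 2.81% were at least 2-fold lower at 52, 64 and 76 h. Lsp2 lay at 3.28, 2.15 and 6.09 at these ages, and Fbp2 at 2.91, 2.04 and 6.27. Not every measure broke at 64 h. The share of all genes at least 2-fold higher was 0.478%, 0.999% and 2.07% at these ages. The median of the members was 0.06, 0.20 and 0.28. Cyp28d2, Cyp18a1, Cyp301a1 and Cyp4c3 are the 4 members at least 2-fold lower at 100 h, and each of the 4 rests on 1 clone. Cyp305a1 at -0.85, Cyp4g15, a P450 gene of the nervous system, at -0.66 and Cyp6a16Psi at -0.63 came next at 100 h.

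**Figure D2:**
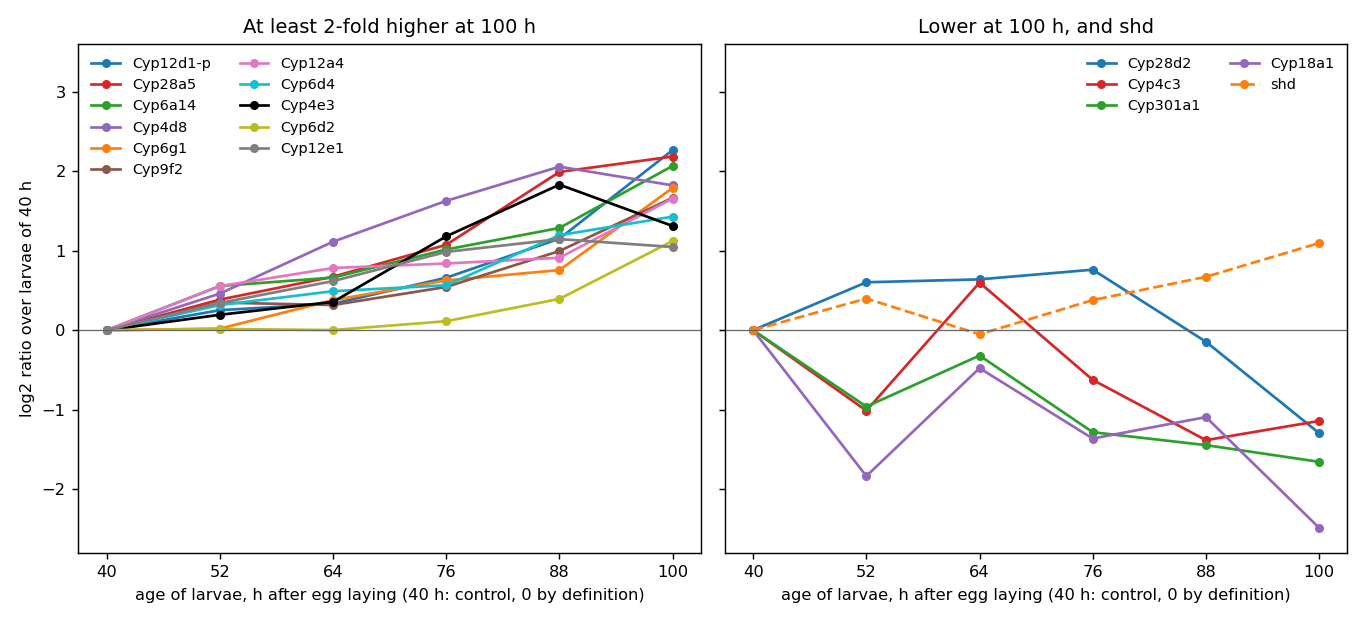
Log2 ratios over larvae of 40 h (likely direction) against age after egg laying in hours, 1 line per gene, for the members at least 2-fold higher (left) or lower (right) at 100 h, with shd dashed; the 40 h control is 0 by definition. The 11 higher members include 6 whose value was higher at every step, whereas Cyp18a1, Cyp301a1 and Cyp4c3 share a value at 64 h above those at 52 and 76 h. A break at 64 h was also seen in genes outside the members, such as Lsp2 and Fbp2, which are not drawn.

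A steady course means a ratio that moved the same way over all 4 larval steps and ended 2-fold or more away from 40 h larvae. The members with such an upward course were 6, Cyp6a14, Cyp6d4, Cyp6g1, Cyp12a4, Cyp12d1-p and Cyp28a5, against a background of 1.45% of all genes. No member had the downward course, against a background of 2.32%. All larval groups have larvae of 40 h as their control, so their values are not independent of each other.

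Markers of several tissues moved with age beside the members. Digestive enzyme genes of the gut, of which 13 of 16 listed were measured, had medians of 0.17, 0.65, 1.05, 1.38 and 0.92 from 52 to 100 h. Their single values spanned -0.16 to 0.63 at 52 h, 0.51 to 2.23 at 88 h and -0.05 to 2.13 at 100 h. Of 6 listed fat body genes Lsp2 and Fbp2 were measured, and both were above 7 on the log2 scale at 88 and 100 h. The 5 of 8 Malpighian tubule genes measured had medians between 0.01 and 0.18. Their single values were split, from -0.52 (Picot at 100 h) to 1.15 (Irk2 at 76 h). The part of these tissues in the P450 values was not tested.

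Starved adults had few P450 genes far from the yeast-fed control. At 24 h no member was 2-fold higher in females (background 0.283%) or in males (background 0.0218%), and none was 2-fold lower in females (background 0.893%) or in males (background 0.566%). The highest at 24 h in females were Cyp6w1 at 0.87, Cyp313a1 at 0.86 and Cyp6a2 at 0.50. In starved males Cyp6w1 was highest at 0.57 and Cyp309a1 lowest at -0.90.

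At 48 h of starvation 2 members were at least 2-fold higher in females (background 1.24%) and none was lower (background 0.727%). Cyp4e3 lay at 2.42, 5.34-fold above the control, after 0.25 at 24 h. In starved males at 24 h it was also at 0.25. Cyp6a2, a gene whose transcript is high in DDT-resistant strains, lay at 0.50 at 24 h and 1.04 at 48 h, with clones of 0.98 and 1.09 at 48 h. Next were Cyp12b2 at 0.86, Cyp28d2 at 0.66 and Cyp301a1 at 0.62. Cyp4s3 was lowest at -0.82, Cyp309a1 lay at -0.68 and Cyp309a2 at -0.60.

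On sugar, females had 1 member at least 2-fold higher at 24 h (background 0.391%) and 2 at 48 h (background 1.7%). Cyp313a1 lay at 1.23 and 1.33 at these times. It lay at 0.86 and 0.57 in starved females, 0.70 and 0.67 in sugar-fed males and 0.04 in starved males, and in larvae between -0.23 and 0.05. Among adults, it was thus above 0 in all 7 groups, and lowest in starved males. Cyp6a2 lay at 0.74 at 24 h and 1.26 at 48 h in sugar-fed females. Its clones read 0.45 and 1.02 at 24 h and 1.28 and 1.25 at 48 h. Cyp12b2 came next at 48 h with 0.97. No member was 2-fold lower in sugar-fed females, at 24 h (background 1.12%) or 48 h (background 1.26%). The lowest were Cyp309a1 at -0.86 at 24 h, and Cyp4s3 and Cyp309a1, both at -0.81, at 48 h.

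Eggshell genes, made in the ovary, were low in all 4 female groups and near 0 in the male groups. All 8 measured eggshell genes of 11 listed were at least 2-fold lower in each female group, with medians of -2.42 and -3.55 in starved females and -3.02 and -2.85 in sugar-fed females. In the 3 male groups the medians were -0.07, -0.02 and 0.14. Muscle genes (7 of 13 measured) had medians of 0.46 and 0.99 in starved females and 0.51 and 1.02 in sugar-fed females, and eye genes (7 of 11 measured) 0.85 and 1.25, and 1.04 and 1.53. Each P450 value above 0 in females stands beside this shift in tissue markers, whose part was not tested. Cyp4g1, the P450 of hydrocarbon synthesis in oenocytes, lay at 2.18 and 1.72 in starved females and 2.05 and 2.19 in sugar-fed females. In starved males Cyp4g1 was at -0.20, and in sugar-fed males it was at 0.20 and 0.15. The members did not move with it as a set, their medians in the 4 female groups lying between -0.06 and 0.06.

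Sugar-fed males had the lowest adult values. At 24 h no member was 2-fold higher (background 0.109%) or lower (background 1.13%), and Cyp28d1 was lowest at -0.96. At 48 h none was higher (background 0.206%) and 3 were lower (background 1.83%). Cyp28d1 lay at -1.80, a level 3.48-fold below the control, Cyp6g1 at -1.39 and Cyp12a4 at -1.24. Each was closer to the control at 24 h, with -0.96 for Cyp28d1, -0.88 for Cyp6g1 and -0.59 for Cyp12a4. After these came Cyp9h1 at -0.97, Cyp309a1 at -0.91 and Cyp12d1-p at -0.88, the last with clones of -0.90 and -0.85. In females given sugar for 48 h these 6 genes were at -0.56 (Cyp28d1), -0.79 (Cyp6g1), -0.33 (Cyp12a4), -0.35 (Cyp9h1), -0.81 (Cyp309a1) and -0.57 (Cyp12d1-p), all below 0 too. The CYP9 and CYP12 families had medians of -0.55 and -0.54 in males given sugar for 48 h. Highest there were Cyp313a1 at 0.67, Cyp313a3 at 0.51 and Cyp28c1 at 0.34.

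In starved males Cyp28d1 lay at -0.55, Cyp6g1 at -0.49 and Cyp12a4 at -0.47. Digestive enzyme genes of the gut were split in adults. Their median was -2.03 in males given sugar for 48 h, with values from -3.88 to 0.36, 8 of 13 at least 2-fold lower and 4 above 0. It was -0.93 in males given sugar for 24 h, where 5 were at least 2-fold lower and 6 above 0, up to 0.57. In starved males it was -1.48, with 7 at least 2-fold lower and 1 above 0. Among females, medians lay between -0.71 and -0.41, with 2 to 6 genes at least 2-fold lower and 1 to 3 at least 2-fold higher in each group. Lowest in every adult group was Jon25Bi, a serine protease gene, from -3.88 to -1.46. The trypsin genes alphaTry and epsilonTry were the highest in females, at up to 1.43. The Malpighian tubule genes had a median of 0.03 in males given sugar for 48 h, with values from -0.20 to 0.41. Of the fat body genes, Lsp2 lay between -7.25 and -4.59 over the adult groups and Fbp2 between -0.21 and 0.07. The part of gut or fat body RNA in the P450 values was not tested.

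**Figure D3:**
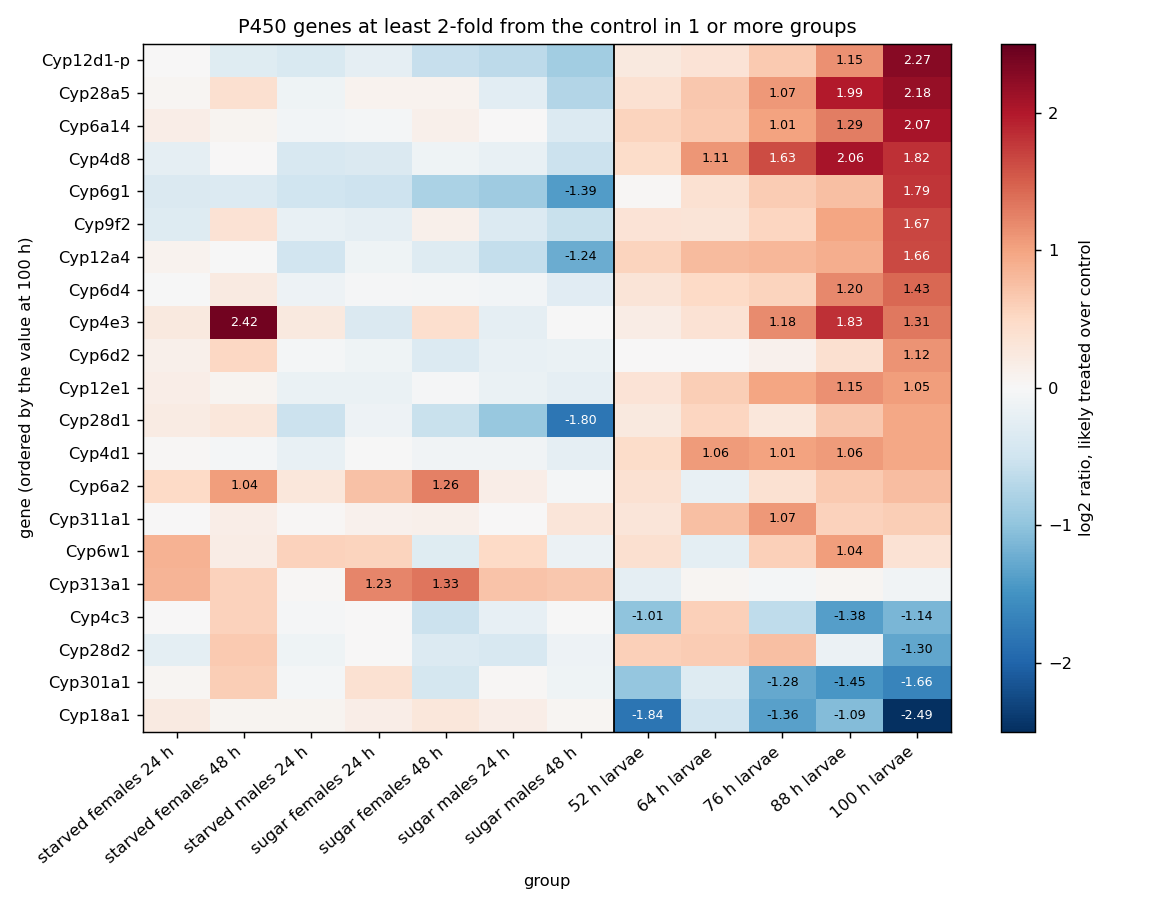
Colour map of the log2 ratio, likely treated over control, of the members at least 2-fold from the control in 1 or more of the 12 groups, with genes as rows and groups as columns. Late larval columns hold most of the strong colours, and Cyp6g1, Cyp12a4 and Cyp28d1 are high in larvae of 100 h and low in males given sugar for 48 h.

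Cyp309a1 and Cyp309a2, the whole CYP309 family, lay below 0 in all 7 adult groups without passing 2-fold. Cyp309a1 was at -0.51 and -0.68 in females without food, -0.90 in starved males, -0.86 and -0.81 in sugar-fed females and -0.58 and -0.91 in sugar-fed males. Cyp309a2 was between -0.62 and -0.19. In larvae Cyp309a1 was above 0 at every age, with 0.22, 0.85, 0.69, 0.36 and 0.29, and Cyp309a2 stayed between -0.10 and 0.07. Cyp4s3 had a like course, between -0.82 and -0.32 in adults and at 0.25, 0.76, 0.66, 0.75 and 0.62 in larvae. Cyp6g1 was below 0 in all adult groups as well, between -1.39 and -0.34.

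Set against each other, starved and sugar-fed females were at least 2-fold apart at 48 h in 4 members, all above in starvation, against a background of 0.934% of all genes, counted in either direction. The first is Cyp4e3, at 2.42 in starved and 0.42 in sugar-fed females, a difference of 2.00. Cyp4c3 was at 0.57 in starved and -0.55 in sugar-fed females, a difference of 1.12. Cyp301a1 was at 0.62 in starved and -0.43 in sugar-fed females, a difference of 1.06. Cyp28d2 was at 0.66 in starved and -0.34 in sugar-fed females, a difference of 1.00. All but Cyp4e3 were within 2-fold of the yeast-fed control in both groups, and all 4 rest on 1 clone. The eggshell, muscle and eye medians were -3.55, 0.99 and 1.25 in starved and -2.85, 1.02 and 1.53 in sugar-fed females, and the part of these tissues in the differences was not tested. At 24 h no member was 2-fold apart in females (background 0.12%) or in males (background 0.566%). Whether the starved and the sugar-fed flies of a sex were set against the same yeast-fed RNA is not given in the sources used here.

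Females given sugar for 48 h lay at least 2-fold above males given sugar for 48 h in 2 members and below in none, against 3.65% of all genes apart in either direction. Cyp6a2 was at 1.26 in females and -0.04 in males, a difference of 1.31, with clones of 1.28 and 1.25 in females and -0.05 and -0.03 in males. Cyp28d1 was at -0.56 in females and -1.80 in males, a difference of 1.24, and thus lower than the control in both sexes. At 24 h no member was 2-fold apart between females and males, in starvation (background 0.981%) or on sugar (background 0.967%). Over time, Cyp4e3 in starved females was the only member at least 2-fold apart between 48 and 24 h, with a difference of 2.17 (background 0.86%). None was so apart on sugar in females (background 0.685%) or in males (background 0.511%).

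Members high in late larvae were mostly below 0 in the male groups and in females on sugar. So were most of the other members, except in females given sugar for 24 h. All 11 members at least 2-fold higher at 100 h were below 0 in males given sugar for 48 h, from -1.39 to -0.01, with a median of -0.54. Among the other 54 members the median was -0.06, with 33 below 0. In males given sugar for 24 h the 11 had a median of -0.23 with 10 below 0, and the other 54 a median of -0.06 with 34 below 0. In starved males the 11 had a median of -0.17 with 10 below 0, and the other 54 a median of -0.09 with 40 below 0. In females given sugar, 10 of the 11 were below 0 at 24 h, with a median of -0.18, and 7 at 48 h, with a median of -0.04. Of the other 54, 27 and 31 were below 0 at these times, with medians of 0.00 and -0.07, so at 48 h the 11 were not lower than the others. In starved females the 11 had a median of 0.04 at 24 h, where 4 were below 0, and of 0.06 at 48 h, where 3 were. Of the other 54, 23 and 21 were below 0 in starved females. Across the 65 members, the ratios of males given sugar for 48 h and of larvae of 100 h had a Pearson r of -0.49 and a Spearman rho of -0.52. Over all 9195 genes with both values r was -0.09 and rho 0.03. These are descriptions across genes, which are not independent replicates, of 2 merged measurements without a shared control. The gut gene medians were 0.92 in larvae of 100 h, with 12 of 13 above 0, and -2.03 in males given sugar for 48 h, with 4 of 13 above 0, and their part was not tested.

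**Figure D4:**
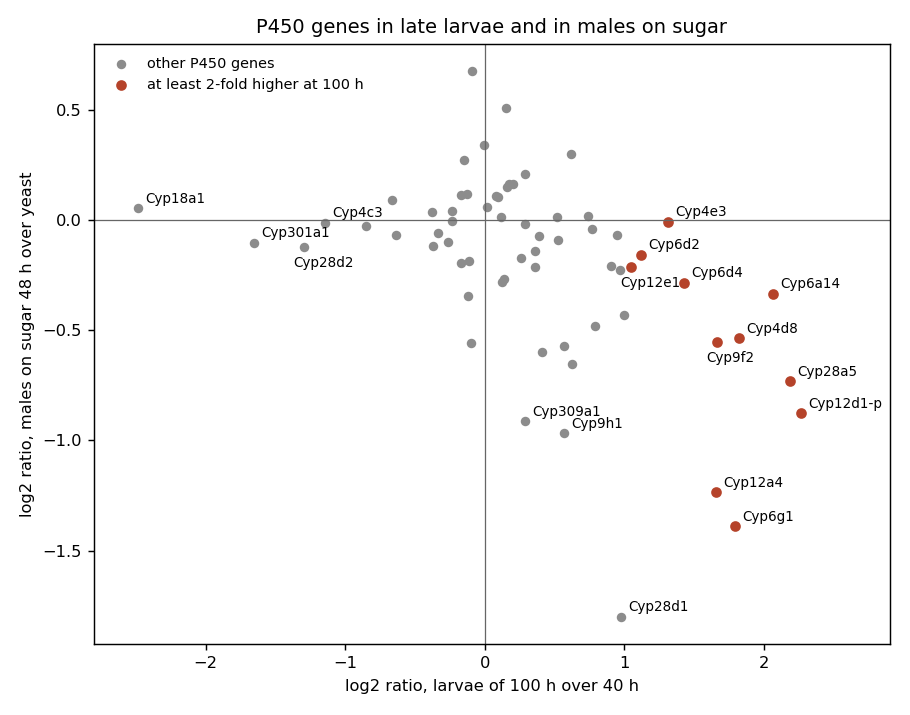
Log2 ratio of each of the 65 P450 genes in larvae of 100 h over 40 h (horizontal axis) and in males given sugar for 48 h over yeast (vertical axis), both in the likely direction. The 11 members at least 2-fold higher at 100 h, in red, all lie below 0 on the vertical axis, and Cyp28d1 is lowest at -1.80.

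Many P450 genes sit side by side in the genome, and among the members 13 pairs, made of 23 genes, had no other protein-coding gene of the RefSeq annotation between them. Of these pairs, 4 were at least 2-fold apart in 1 or more larval groups and 2 in 1 or more adult groups. Pairs of genes that are not neighbours were not counted, so whether neighbours part more or less often than other pairs is not known. Cyp28d2 and Cyp28d1, on chromosome arm 2L, differed by -2.27 at 100 h (-1.30 and 0.97) and by 1.68 in males given sugar for 48 h (-0.12 and -1.80), so their order turned round. Cyp6g1 and Cyp6g2, a gene known from the gland that makes juvenile hormone, differed by 1.67 at 100 h (1.79 and 0.12) and by -1.11 in males given sugar for 48 h (-1.39 and -0.28). Cyp6g2 itself kept between -0.28 and 0.33 in all groups. Cyp6a14 and Cyp6a13 differed by 1.16 at 100 h, with 2.07 and 0.91. Cyp316a1 and Cyp4d8, neighbours of different families on chromosome arm 3L, differed by -1.95 at 88 h, with 0.10 and 2.06. The other 9 pairs, among them Cyp12a5 and Cyp12a4 and the CYP313 genes of arm 3R, stayed within 2-fold of each other in every group. Clones of related genes may read each other's RNA, which was not tested.

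**Figure D5:**
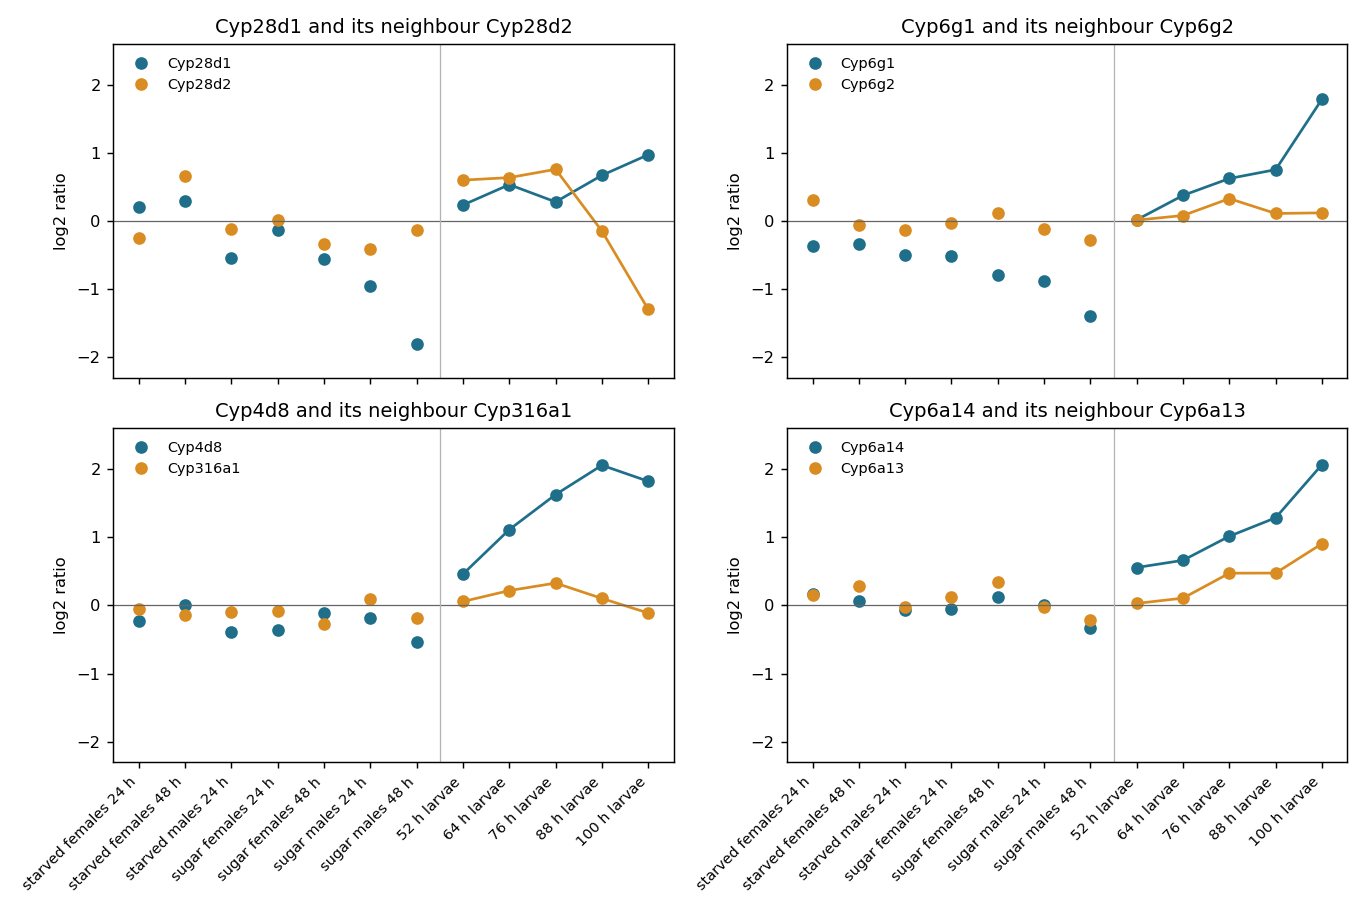
Log2 ratios, likely treated over control, of both genes of the 4 adjacent pairs that were at least 2-fold apart in a larval group, over the 12 groups. Cyp28d1 and Cyp28d2 part in opposite ways in males given sugar for 48 h and in larvae of 100 h, and Cyp6g2 stays between -0.28 and 0.33 while Cyp6g1 spans -1.39 to 1.79.

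The 44 members that were 2-fold from the control in no group are given by family. In CYP4 there were 11, between -0.82 (Cyp4s3) and 0.57 (Cyp4d20) in adults and between -0.66 (Cyp4g15) and 0.76 (Cyp4s3) in larvae. They include Cyp4d21, known from male courtship, between -0.19 and 0.04 in adults and 0.08 and 0.32 in larvae. In CYP6 there were 13, between -0.57 (Cyp6a22) and 0.58 (Cyp6a18) in adults and between -0.63 (Cyp6a16Psi) and 0.998 (Cyp6t1) in larvae. Cyp6a20, known from male aggression, was at 0.38 and 0.33 in females without food, 0.27 and 0.41 in females with sugar and between -0.12 and 0.06 in males. In CYP313 there were 5, between -0.31 (Cyp313a5) and 0.51 (Cyp313a3) in adults and between -0.27 and 0.78 (both Cyp313a4) in larvae. The remaining 15 belong to CYP9 (2), CYP12 (3), CYP28 (1), CYP309 (2) and to 7 families with a single measured gene. Of these single genes, Cyp303a1, needed for mechanosensory bristles, lay between -0.16 and 0.28 over all groups, and Cyp49a1, a mitochondrial P450, between -0.31 and 0.04.

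The partners and regulators of P450 enzymes moved little by the same count. Of 7 gene names listed as electron donors 3 were measured, Cyt-b5-r, Fdx1 and Fdx2. Their median was -0.47 and -0.60 in sugar-fed males at 24 and 48 h and -0.42 in larvae of 100 h, where Cyt-b5-r was at -1.05. Cyt-b5-r was listed by its name, and that it gives electrons to P450 enzymes is not established. Without it, Fdx1 and Fdx2 were at -0.10 and -0.47 in sugar-fed males at 24 h and -0.08 and -0.60 at 48 h. In larvae of 100 h they were at -0.42 and -0.20. For regulators of P450 genes 11 names were listed, of which Hr96 and DHR96 name 1 gene. Measured were 10 genes, among them the xenobiotic receptor Hr96, cnc and its inhibitor Keap1. None of the 10 was 2-fold from the control in any group, with medians between -0.08 and 0.21. Of 11 listed juvenile hormone genes 7 were measured, and 2 passed 2-fold upward at 100 h (background 4.97%). They were the epoxide hydrolase gene Jheh2 at 1.18 and Fpps, named after its value was seen, at 1.16. In males given sugar for 48 h the juvenile hormone median was -0.16.

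The cyclophilin genes that the symbol pattern also took stayed within 2-fold of the control in all 12 groups. Cyp1 lay between -0.76 and -0.14 in adults and between -0.53 and 0.04 in larvae. Cyp40 lay between -0.41 and 0.32 in adults and between -0.25 and -0.03 in larvae.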

How the data were processed

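Treated and control total RNA were set side by side on spotted arrays with 2 dye channels, both dye orientations occurring in every group. Per the labels, 3 scans were taken of each array, and both spots of a clone and all repeats were merged by the authors into 1 value. The deposited values are ratios on the log2 scale. The base follows from the values: 2 raised to their size ended at 6 decimals, to within 0.05 of the final one, in 99.995% of cases, and e raised to it in 9.999%. How the authors normalised, corrected background or filtered is not given in the sources used here. Spot brightness was not used. With 4 to 6 arrays per group, their number limits the precision. All arrays of a group held the same values, so no test was made. Over all clones, correlations between groups ran from -0.27 to 0.864.

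The 12094 clones were named through the platform annotation, updated by gene identifier (9814 clones) or accession (87) to RefSeq of Release 6 plus ISO1 MT. A further 247 kept the annotation's symbol, 1945 had none and 1 had several. Medians over clones gave 9212 genes, 9158 with values in all groups. No filter was made. Values in all groups were given for P450 genes at least 2-fold from the control somewhere, for the 3 highest and lowest of each group or difference, and for ecdysone-related P450 genes; a count of differences covers both signs. The members and lists were chosen with earlier results of these data known. The counting step was tested on simulated data. Alternatives were the mean over clones, other thresholds, centred values, annotation symbols, and sets with Cyp4g1, the ecdysone P450 genes or the cyclophilins added. Computation used Python 3.11.15, pandas 2.3.3, numpy 2.4.6 and matplotlib 3.10.9.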

Additional observations from a re-analysis of the deposited data

Results flagged for a closer look

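Values were compared between the sexes at the same diet and time, between 48 and 24 h of a diet, and between successive larval ages. In 3 genes they lay on opposite sides of 0 and at least 2-fold apart, and these differences were not tested. Cyp6a2 was at 1.26 in females given sugar for 48 h and -0.04 in males given sugar for 48 h, 1.31 apart. Cyp4c3 was at 0.60 in larvae of 64 h and -1.01 in larvae of 52 h, 1.61 apart. Its value at 76 h was -0.63 against 0.60 at 64 h, a difference of -1.22. Cyp313a4 was at 0.78 at 64 h and -0.27 at 52 h, 1.05 apart. Each of these larval differences involves the 64 h group. A break there was also seen in some genes outside the members, such as Lsp2 and Fbp2. Cyp4c3 and Cyp313a4 rest on 1 clone each, and the 95th percentile of clone differences was 0.62 at 52 h, 0.65 at 64 h and 0.85 at 76 h.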

How the results depend on the processing

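No paired analysis was possible because all arrays of a group hold the same merged value, and leaving out single arrays was not run for that reason. With a threshold of 1.5-fold, starved females had 2 members at 24 h (3.08%, background 4.27%) and 9 at 48 h (13.8%, background 8.39%). Starved males had 1 (1.54%, background 1.88%). Sugar-fed females had 4 (6.15%, background 5.01%) and 7 (10.8%, background 9.42%) at 24 and 48 h. Sugar-fed males had 6 (9.23%, background 2.71%) and 10 (15.4%, background 4.25%). Larvae of 52, 64 and 76 h had 4 (6.15%, background 5.33%), 13 (20%, background 6.12%) and 18 (27.7%, background 13.5%). Larvae of 88 and 100 h had 24 (36.9%, background 17%) and 28 (43.1%, background 25.7%). At 3-fold the members counted were 1 in females starved for 48 h, 0 and 0 in sugar-fed females and 1 in males given sugar for 48 h. In larvae they were 1, 0, 1, 3 and 9, and the other 3 groups stayed at 0. The share of all genes at 3-fold was not counted, so these counts have no background beside them. Centring each group on its median over all genes moved the count at 52 h to 1, the only change by over 1.5 times. Smaller changes also occur. At 76 h the median of all genes was 0.019, and Cyp4d1 at 1.012 and Cyp6a14 at 1.015 fall below 2-fold. Cyp28d2 leaves the members 2-fold apart between starved and sugar-fed females at 48 h. Cyp9f2 at 88 h (0.996) and Cyp6t1 at 100 h (0.998) rise past 2-fold, the medians of all genes being -0.03 and -0.02. Adding Cyp4g1 moved the counts at 24 h to 1 in starved females and 2 in sugar-fed females. The annotation's own symbols and added ecdysone P450 genes moved no count by over 1.5 times. The mean over clones could not differ from the median, because every member has 1 or 2 clones. Added cyclophilins (an addition chosen after seeing the data) could not change a 2-fold count, as neither was 2-fold in any group. Centring can turn the sign of values near 0. Cyp4d8, for example, was at 0.0006 in females starved for 48 h, where the median of all genes was 0.015. Spot brightness, which sets the precision of a ratio, was not used, so no limit from depth can be given.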
